A study of Mus musculus with 9 samples.

Results

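Crip1, Hopx, Ahnak, S100a4, S100a6, S100a10, S100a11, Lgals1, Anxa2 and Vim are 10 genes of the cell cortex, the cytoskeleton and calcium signalling, with one transcriptional cofactor among them, that are known from antigen-experienced CD8 T cells. They were taken by symbol from a table of 24060 genes, where each symbol has a row of its own, and all 10 passed the filter on low values, as did 12115 genes in all. The table holds RNA-seq values of CD8 T cells from 3 lines of mice, Rop7-I, Rop7-II and Rop7-III, with 3 biological replicates per line and 9 samples in all. Each line is a transnuclear strain, made by transfer of the nucleus of a CD8 T cell that bound H-2Ld tetramers loaded with a peptide of the Toxoplasma protein Rop7, so that each stands for the T-cell receptor of 1 clone and line and receptor cannot be told apart. The study states that the Rop7 mice were backcrossed onto BALB/c over several generations. It describes the cells sequenced as coming from mice homozygous for the receptor genes. Their splenocytes were kept overnight in IL-2 at 10 ng/ml without antigen, and CD3+ CD8+ cells that bound the tetramer were sorted to a purity of 90 to 95%. Age and sex of the mice are not given in the sources used here, and nothing there says how many mice stand behind a replicate, so p-values measure the spread between these samples.

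S100 proteins are small EF-hand proteins, most of which change shape on binding calcium and then dock onto partners. Among these partners are the annexins, which bind membranes. S100A10 pairs with annexin A2 in a complex that also binds the large scaffold AHNAK beneath the plasma membrane. Vimentin forms intermediate filaments, galectin-1 binds glycans at the cell surface, CRIP1 is a small LIM-domain protein, and HOPX is a homeodomain protein that does not bind DNA itself. In T cells, transcripts of this kind are known to be more abundant in effector and memory cells than in naive ones.

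The 10 genes did not move as a block between the clones. Crip1 was about 8-fold higher in Rop7-II than in both other clones, Hopx was measured almost only in Rop7-I, and Ahnak was more than 2-fold higher in Rop7-III than in both others. Rop7-I had less Vim than Rop7-II, by under 2-fold. S100a10 and S100a11, the most abundant of the genes, differed little, and S100a4 and S100a6 were low and spread widely between replicates of the same clone. Values are TPM, which divide reads by gene length and scale each sample to the same total, and differences are of log2(TPM + 1) from limma, with p-values adjusted over all 12115 genes.

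The sorted cells carried their label: the summed level of Cd8a, Cd8b1, Cd3d, Cd3e, Cd3g and Cd247 was between 5591 and 6255 TPM in the 9 samples. Markers of other cells varied more, and Rop7-II replicate 1 stood apart. All 14 B-cell markers and 17 of 18 myeloid markers had their highest value there, with summed levels of 948 and 891 TPM, against 101 to 444 TPM and 155 to 349 TPM in the other samples. NK-cell markers summed to between 13.9 and 24.0 TPM and CD4 T-cell and Treg markers to between 55.1 and 83.2 TPM. Erythroid and platelet markers summed to 1439 TPM in Rop7-I replicate 2 and to between 36.6 and 305 TPM elsewhere. Of the fibroblast and endothelial markers, Col3a1, Dcn, Lum and Emcn were at 0 in every sample. Rop7-II replicate 1 was also the highest sample for 6 of the 10 genes, against 20.9% of all genes tested. Values without it are therefore given beside results of Rop7-II that it moves past a limit, and for each list.

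A gene counted as called when its adjusted p was below 0.01 and its difference reached 2-fold. In Rop7-III against Rop7-II, 2 of the 10 genes were called, against 1.7% of all genes. Ahnak was higher and Crip1 lower. In Rop7-III against Rop7-I, 2 were called, against 1.06% of all genes, with Ahnak higher and Hopx lower. In Rop7-I against Rop7-II, 2 were called, against 0.949% of all genes, with Hopx higher and Crip1 lower. Vim passed the adjusted p alone in that pair, making 3 of 10 against 7.53% of all genes at this limit, while in the other pairs the 2 called genes were also the ones that passed it, against 12.3% and 4.85%. In at least 1 pair, 3 of 10 were called, against 2.48%. An F test across the 3 clones was passed by Crip1, Hopx, Ahnak and Vim, 4 of 10, against 14.1% of all genes. The pairs share clones and are not independent of each other.

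**Figure D1:**
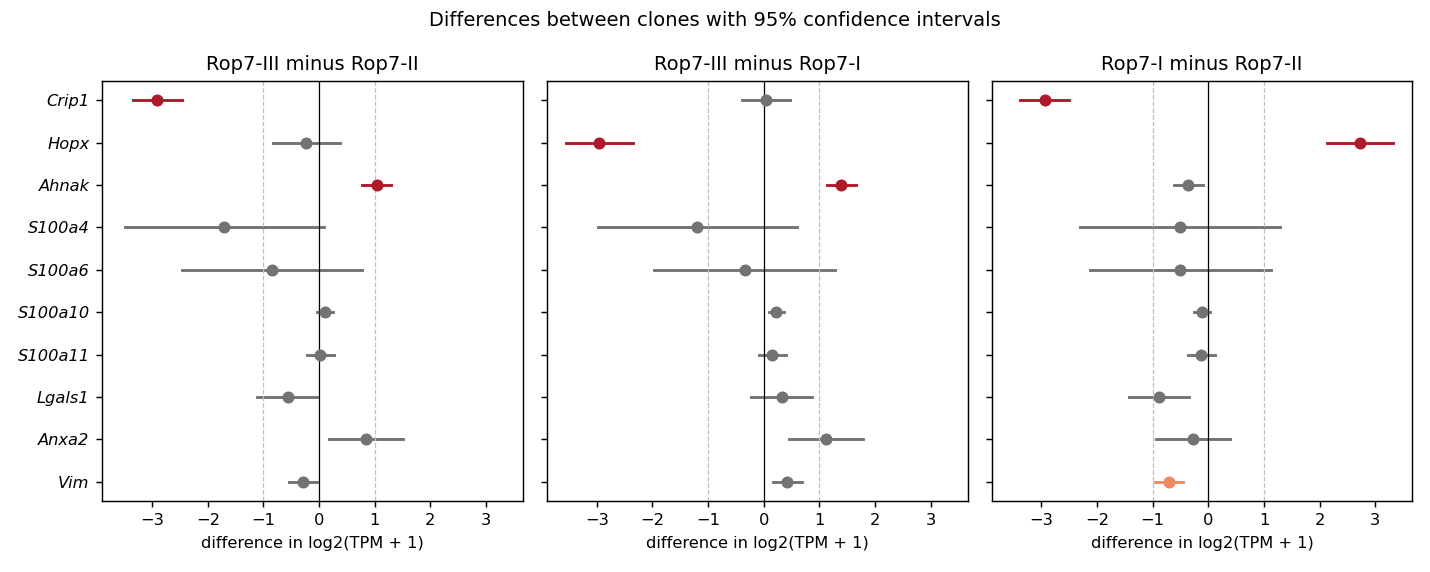
Difference in log2(TPM + 1) of each gene in the 3 pairs of clones, with its 95% confidence interval from limma and dashed lines at a 2-fold difference. Red marks called genes, with an adjusted p below 0.01 and a 2-fold difference, orange marks Vim, which passed the adjusted p alone, and grey marks the rest. Crip1 lies near -2.9 in both pairs with Rop7-II, and the intervals of S100a4 and S100a6 are the widest.

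The largest differences belonged to single genes, and the median size of difference over the 10 genes was also above that of all genes. The median difference of the 10 genes was -0.26 in Rop7-III against Rop7-II, 0.19 in Rop7-III against Rop7-I and -0.43 in Rop7-I against Rop7-II, where the medians of all genes were -0.019, -0.0035 and -0.0088. Taken without sign, the median was 0.70, 0.38 and 0.51, against 0.13, 0.10 and 0.12 for all genes. The 10 include S100a4 and S100a6, whose differences had a SE of 0.80 and 0.72. The replicates of the 2 clones did not overlap for 5, 6 and 4 of the 10 genes in the 3 pairs, against 40.7%, 38.2% and 35.0% of all genes, so that these counts are near the background. By mean TPM, 5 genes were highest in Rop7-II, namely Crip1, S100a4, S100a6, Lgals1 and Vim, and 4 in Rop7-III, namely Ahnak, S100a10, S100a11 and Anxa2. Hopx alone was highest in Rop7-I. A single library sets part of this order. When Rop7-II replicate 1 was left out, the mean of S100a6 in Rop7-II was 3.18 TPM, below the 4.93 TPM of Rop7-I, and that of S100a4 was 5.25 TPM, next to 5.16 TPM in Rop7-I, while the other 8 genes kept their clone. Of all genes tested, 40.5% were highest in Rop7-II, 32.2% in Rop7-III and 27.3% in Rop7-I.

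**Figure D2:**
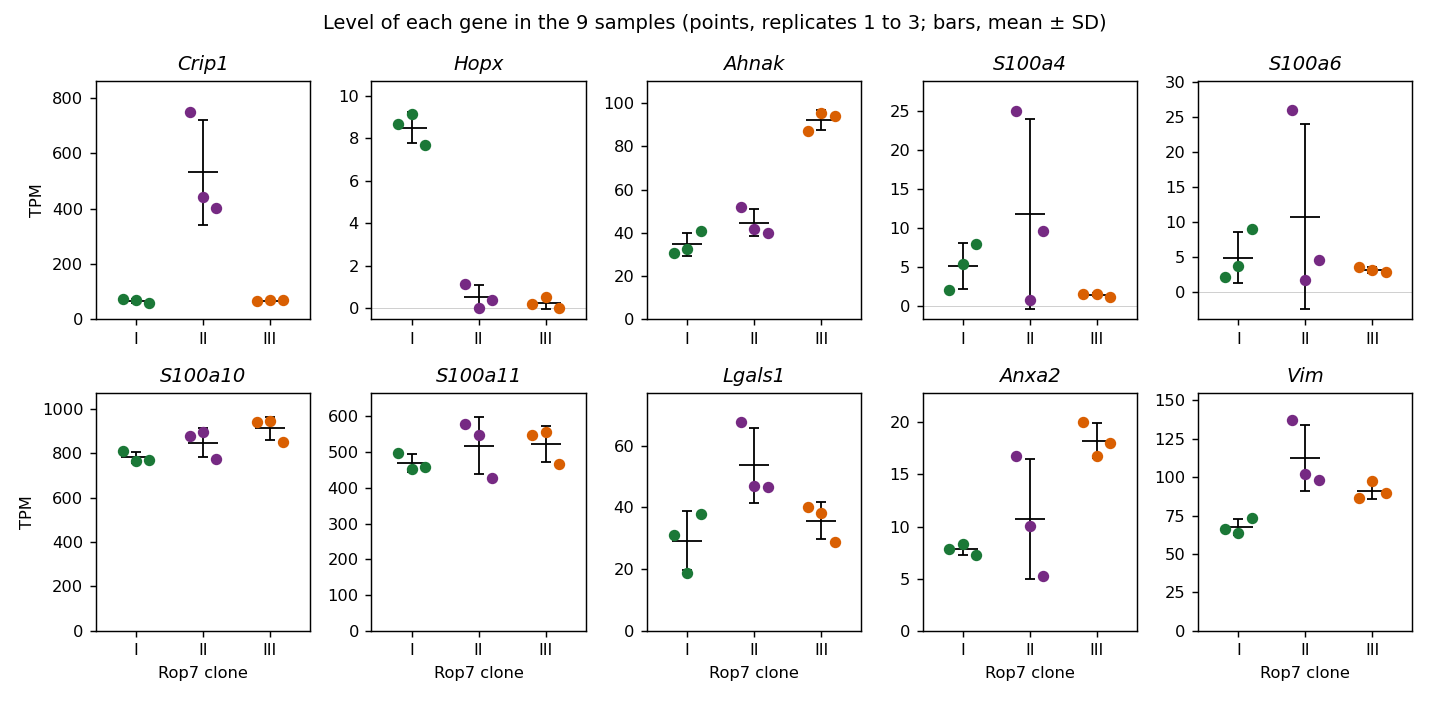
TPM of each of the 10 genes in the 9 samples, with points for replicates 1 to 3 of each clone from left to right and bars for the mean ± SD (n = 3). The vertical scale differs between panels and starts at or below 0. Crip1 stands out in Rop7-II, Hopx in Rop7-I and Ahnak in Rop7-III, whereas S100a4 and S100a6 reach 24.9 and 26.0 TPM in 1 Rop7-II sample.

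Crip1 encodes a LIM-domain protein of the cytoplasm and lies at chr12:113152012-113153879 (GRCm38). Its level was 748, 441 and 403 TPM in Rop7-II replicates 1 to 3. It was 71.1, 68.7 and 57.2 TPM in Rop7-I and 65.1, 68.2 and 68.3 TPM in Rop7-III. Every Rop7-II sample was thus above every other sample, and Rop7-I and Rop7-III overlapped. The mean was 531 ± 189 TPM in Rop7-II, 65.7 ± 7.41 in Rop7-I and 67.2 ± 1.80 in Rop7-III (SD, n = 3). The difference was -2.91 (SE 0.19, adjusted p = 1.79e-05 by limma) for Rop7-III against Rop7-II and -2.95 (SE 0.19, adjusted p = 2.17e-05) for Rop7-I against Rop7-II, which correspond to ratios of mean TPM of 7.90 and 8.08. Between Rop7-III and Rop7-I the difference was 0.038, with a 95% confidence interval from -0.40 to 0.48. Without Rop7-II replicate 1 the differences to Rop7-II were -2.63 and -2.67 (adjusted p = 2.41e-07 and 2.66e-07). In bulk samples, more cells that carry a transcript and more transcript per cell cannot be told apart.

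Markers of B cells and of myeloid cells were set beside Crip1. Summed B-cell markers were 109 and 108 TPM in Rop7-II replicates 2 and 3, which had Crip1 at 441 and 403 TPM, and 444 TPM in Rop7-I replicate 2, which had it at 68.7 TPM. Summed myeloid markers were 171 and 349 TPM in the same Rop7-II replicates, and at most 267 TPM in the other clones. With the B-cell marker level as a covariate the difference of Crip1 in Rop7-III against Rop7-II was -2.72, and with the myeloid level it was -2.58. The part of other cells in the level of Crip1 was not tested.

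Crip1 was chosen for its size of difference to show its promoter, together with those of Ahnak, the gene that marked Rop7-III, and of S100a4 and S100a6, which lie side by side and varied together. The windows run from 250 bases before to 50 bases after the RefSeq start and were read from RefSeq on GRCm38.p6, each 5′ to 3′ on the gene's own strand, the plus strand for all 4. Capitals mark matches on either strand to the KLF motif CCACCC, which reads as GGGTGG on the other strand, the T-box motif TCACACC, which reads as GGTGTGA, or the AP-1 motif TGANTCA, which do not overlap in these windows. Crip1 is at chr12:113151762-113152061, Ahnak at chr19:8989034-8989333, S100a4 at chr3:90603520-90603819 and S100a6 at chr3:90612644-90612943.
Crip1: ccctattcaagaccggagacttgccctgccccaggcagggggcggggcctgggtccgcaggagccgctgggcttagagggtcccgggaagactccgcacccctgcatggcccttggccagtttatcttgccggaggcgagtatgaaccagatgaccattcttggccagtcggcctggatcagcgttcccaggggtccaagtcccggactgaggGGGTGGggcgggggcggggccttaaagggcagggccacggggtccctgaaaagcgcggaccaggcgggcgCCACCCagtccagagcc
Ahnak: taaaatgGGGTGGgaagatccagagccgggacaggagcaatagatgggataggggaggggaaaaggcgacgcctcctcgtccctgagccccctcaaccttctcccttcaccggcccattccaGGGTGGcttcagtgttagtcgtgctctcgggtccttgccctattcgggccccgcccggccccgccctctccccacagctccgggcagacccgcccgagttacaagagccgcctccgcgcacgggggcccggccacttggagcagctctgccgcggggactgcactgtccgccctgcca
S100a4: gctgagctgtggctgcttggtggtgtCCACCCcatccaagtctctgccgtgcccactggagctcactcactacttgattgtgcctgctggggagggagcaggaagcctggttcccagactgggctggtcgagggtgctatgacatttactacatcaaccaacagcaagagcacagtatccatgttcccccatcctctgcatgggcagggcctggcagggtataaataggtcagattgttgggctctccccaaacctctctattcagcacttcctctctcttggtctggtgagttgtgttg
S100a6: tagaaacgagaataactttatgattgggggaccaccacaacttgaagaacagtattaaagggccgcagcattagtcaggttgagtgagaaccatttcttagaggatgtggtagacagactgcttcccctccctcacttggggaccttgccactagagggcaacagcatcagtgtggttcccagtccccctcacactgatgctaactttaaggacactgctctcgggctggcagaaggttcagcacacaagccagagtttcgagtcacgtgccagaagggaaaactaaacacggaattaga

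The Crip1 window held 2 KLF matches, the Ahnak window 2, the S100a4 window 1 and the S100a6 window none. Promoter windows were found for 8 of the 10 genes, with 2 for Hopx, and not for S100a10 and Lgals1. The KLF motif was found in the windows of Crip1, Ahnak, S100a4, Anxa2 and Vim, and in 31.6% of all 32544 windows. The AP-1 motif was found in those of S100a11 and Anxa2 and in 7.79% of all windows, and the T-box motif in none of them and in 3.95% of all. Neither Hopx window held any of the 3 motifs. A match is a description of these letters. Klf2, which encodes a KLF factor of resting T cells, was at 1311 TPM in Rop7-II, 1166 TPM in Rop7-III and 817 TPM in Rop7-I. Its difference was -0.17 (adjusted p = 0.103 by limma) in Rop7-III against Rop7-II, with overlapping replicates. It was 0.51 (adjusted p = 0.00162) in Rop7-III against Rop7-I and -0.68 (adjusted p = 2.62e-04) in Rop7-I against Rop7-II. Whether Klf2 bears on the level of any of these genes was not tested.

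On chromosome 12, 19 tested genes lay within 1 Mb of Crip1. Of these, 4 passed the adjusted p in Rop7-III against Rop7-II, 2 in Rop7-III against Rop7-I and 3 in Rop7-I against Rop7-II. The shares of all genes were 12.3%, 4.85% and 7.53%. Called in at least 1 pair were 2 of the 19, Crip2 and Pacs2, against 2.48% of all genes. Crip2, the paralogue of Crip1, lies 6.5 kb away and was low in every sample. It was at 3.50, 2.56 and 2.15 TPM in Rop7-II, at 0.52, 0.89 and 0.29 TPM in Rop7-I and at 0.46, 0.80 and 0.82 TPM in Rop7-III. The difference was -1.13 (SE 0.20, adjusted p = 0.00384 by limma) for Rop7-III against Rop7-II and -1.26 (SE 0.20, adjusted p = 0.00332) for Rop7-I against Rop7-II, so that Crip2 was higher in the clone where Crip1 was, at a level of Crip1 between 172 and 214 times its own within Rop7-II. These differences were -0.99 (adjusted p = 0.00982), under 2-fold, and -1.11 (adjusted p = 0.00777) without Rop7-II replicate 1. RSEM divides reads that match more than 1 gene between them, and whether reads were shared between these paralogues was not tested. Pacs2, a sorting protein of the secretory pathway 77.6 kb away, was between 169 and 181 TPM in Rop7-II, between 136 and 138 TPM in Rop7-III and between 80.4 and 88.9 TPM in Rop7-I. It differed by -1.03 (adjusted p = 7.78e-07) in Rop7-I against Rop7-II, -0.35 (adjusted p = 4.30e-04) in Rop7-III against Rop7-II and 0.68 (adjusted p = 2.06e-05) in Rop7-III against Rop7-I, and thus set Rop7-III and Rop7-I apart, which Crip1 did not. Nudt14, which encodes a hydrolase of nucleotide sugars 209.9 kb away, went against Crip1. It was between 131 and 145 TPM in Rop7-III, between 86.3 and 90.6 TPM in Rop7-I and between 70.4 and 81.5 TPM in Rop7-II, with a difference of 0.86 (adjusted p = 1.73e-05) in Rop7-III against Rop7-II and 0.63 (adjusted p = 1.88e-04) in Rop7-III against Rop7-I. Cdca4 differed by 0.23 (adjusted p = 0.00268) in Rop7-III against Rop7-II and Inf2, a formin, by -0.43 (adjusted p = 0.00159) in Rop7-I against Rop7-II.

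**Figure D3:**
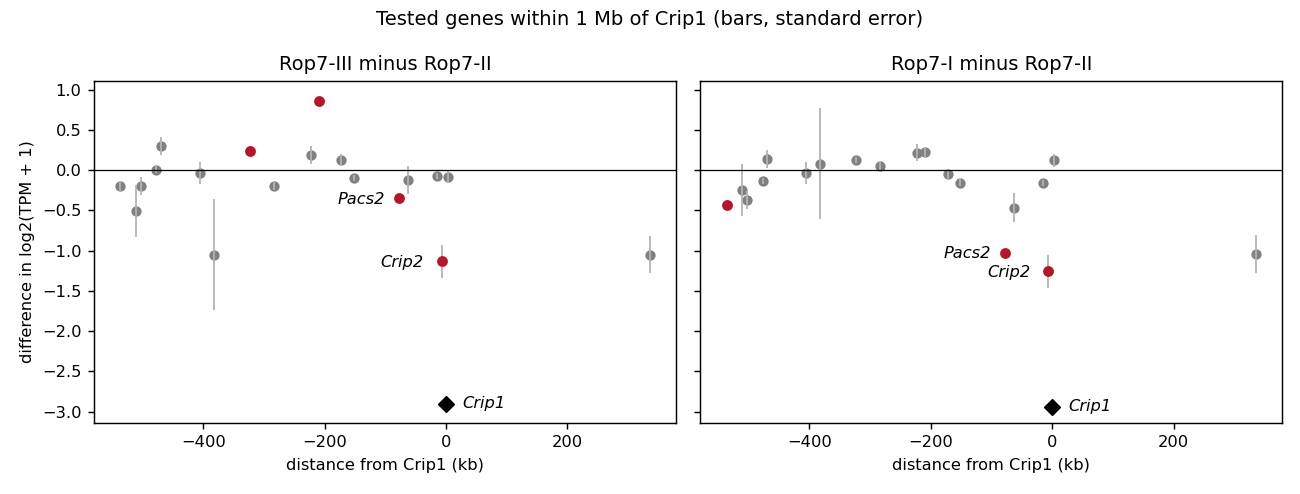
Difference in log2(TPM + 1), with its standard error, of the 19 tested genes within 1 Mb of Crip1 against their distance from it in kb, for both pairs with Rop7-II. Red marks an adjusted p under 0.01, grey the rest, and the black diamond is Crip1 itself. Crip1 lies far below its neighbours in both panels, with Crip2 next to it near -1.1 and -1.3.

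Hopx, at chr5:77086986-77115123, encodes the homeodomain-only cofactor that restrains transcription through partner proteins. It was at 8.69, 9.15 and 7.68 TPM in Rop7-I. In Rop7-II it was at 1.11, 0 and 0.40 TPM and in Rop7-III at 0.20, 0.53 and 0 TPM. All Rop7-I samples were above all others, and 1 library of each other clone was listed at 0, which in a file without counts need not be the absence of the transcript. The difference was -2.95 (SE 0.27, adjusted p = 1.93e-04 by limma) in Rop7-III against Rop7-I and 2.72 (SE 0.27, adjusted p = 2.24e-04) in Rop7-I against Rop7-II. These sizes depend on the added value of 1 TPM, and with 0.1 TPM they were -5.01 and 4.45. Between Rop7-III and Rop7-II the difference was -0.23 (95% confidence interval -0.83 to 0.37), with levels under 1.2 TPM throughout. Without Rop7-II replicate 1, Rop7-I was above Rop7-II by 3.00 (adjusted p = 4.69e-05). Eomes, a T-box factor of memory and effector cells, was also highest in Rop7-I, at a mean of 14.1 TPM against 2.34 in Rop7-II and 6.82 in Rop7-III.

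Ahnak, Anxa2 and S100a10 encode parts of one membrane-associated complex and had their highest means in the same clone. Ahnak, the scaffold, lies at chr19:8989284-9076935. It was at 87.2, 95.6 and 94.3 TPM in Rop7-III, at 52.1, 42.0 and 40.1 TPM in Rop7-II and at 30.7, 32.6 and 40.7 TPM in Rop7-I. The Rop7-III samples were above all others, and Rop7-I and Rop7-II overlapped. The difference was 1.04 (SE 0.12, adjusted p = 3.04e-04 by limma) in Rop7-III against Rop7-II and 1.40 (SE 0.12, adjusted p = 1.21e-04) in Rop7-III against Rop7-I, and -0.36 (adjusted p = 0.0612) in Rop7-I against Rop7-II. The first lies close to 2-fold. Dropping replicate 1 of Rop7-II gave 1.15, while dropping its replicate 2 gave 0.998 and its replicate 3 gave 0.966, where Ahnak passed the adjusted p (0.00128 and 0.00135) but not the fold.

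Anxa2, the annexin of the complex, lies at chr9:69453683-69491792 and was low. Its level was 20.0, 16.7 and 18.0 TPM in Rop7-III and 7.85, 8.29 and 7.27 TPM in Rop7-I. Rop7-II spread from 16.7 TPM in replicate 1 through 10.1 to 5.26 TPM. Rop7-III was above every Rop7-I sample and, by a narrow margin, above every Rop7-II sample. The difference was 1.13 (95% confidence interval 0.46 to 1.79, adjusted p = 0.0372 by limma) to Rop7-I and 0.84 (0.18 to 1.51, adjusted p = 0.0653) to Rop7-II, neither past 0.01. Without Rop7-II replicate 1 they were 1.13 (adjusted p = 0.00362) and 1.21 (adjusted p = 0.00310), and Anxa2 was then called in both. In Rop7-III against Rop7-I it was also called without Rop7-II replicate 3 (adjusted p = 0.00324) and with only these 2 clones fitted (adjusted p = 3.42e-04). In Rop7-III against Rop7-II it was also called with the B-cell marker level as a covariate (1.09, adjusted p = 0.00848). In that pair it did not pass without Rop7-II replicate 2 or 3 (adjusted p = 0.104 and 0.107).

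S100a10, the S100 partner of annexin A2, lies at chr3:93555117-93564645 and was the most abundant of the 10 genes, with a mean of 847 TPM and rank 148 of 12115. Its level in TPM was 812, 764 and 768 for Rop7-I, 877, 894 and 774 for Rop7-II, and 939, 946 and 851 for Rop7-III. Rop7-III lay above Rop7-I without overlap, by 0.22 (95% confidence interval 0.085 to 0.36, adjusted p = 0.0425 by limma). To Rop7-II the difference was 0.11 (-0.030 to 0.24). In Rop7-I against Rop7-II it was -0.12 (-0.25 to 0.021). The last 2 were 0.13 and -0.090 without Rop7-II replicate 1. Its TPM was 46.9 to 56.5 times that of Anxa2 in Rop7-III, 92.2 to 106 times in Rop7-I and 52.4 to 147 times in Rop7-II, so that the partners of the complex differed widely in transcript level.

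S100a11, whose protein binds annexin A1, is the neighbour of S100a10, 28.8 kb away at chr3:93520496-93526288, and was second in abundance, with a mean of 504 TPM. Its values ran from 452 to 497 TPM in Rop7-I, from 428 to 578 TPM in Rop7-II and from 466 to 556 TPM in Rop7-III. All 3 clones overlapped, and the differences were between -0.13 and 0.15, with no adjusted p under 0.399. The ratio of S100a10 to S100a11 was between 1.52 and 1.82 in all 9 samples. Together these genes made up 57.5 to 85.6% of the summed TPM of the 10, with the lowest shares in Rop7-II, where Crip1 was high.

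S100a4 and S100a6, at chr3:90603770-90606045 and chr3:90612894-90614414, encode S100 proteins of motile and of dividing cells and lie 6.8 kb apart. S100a4 was at 24.9, 0.86 and 9.63 TPM in Rop7-II, at 2.09, 5.39 and 8.0 TPM in Rop7-I and at 1.62, 1.52 and 1.25 TPM in Rop7-III. S100a6 was at 26.0, 1.75 and 4.62 TPM in Rop7-II, at 2.12, 3.65 and 9.01 TPM in Rop7-I and at 3.60, 3.09 and 2.81 TPM in Rop7-III. The samples of Rop7-II held both the highest and the lowest value of each gene, while Rop7-III was even, with a coefficient of variation of 13.1% for S100a4 and 12.6% for S100a6, against 103% and 123% in Rop7-II. No pair passed the test. The difference of S100a4 was -1.70 (95% confidence interval -3.49 to 0.090, adjusted p = 0.150 by limma) in Rop7-III against Rop7-II and that of S100a6 was -0.85 (-2.47 to 0.78, adjusted p = 0.422). Leaving out Rop7-II replicate 1 gave -0.86 and 0.080, and leaving out Rop7-II replicate 2 gave -2.76 (adjusted p = 0.00403) and -1.57 (adjusted p = 0.110).

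S100a4 and S100a6 were highest in the sample with the most myeloid transcripts. That sample also had the highest summed B-cell markers, at 948 TPM, and CD4 T-cell and Treg markers, at 83.2 TPM. The summed myeloid level was 891 TPM in Rop7-II replicate 1, which had the highest S100a4 and S100a6, 171 TPM in replicate 2, which had the lowest of both, and 349 TPM in replicate 3, which lay between them. It was 169, 214 and 267 TPM in Rop7-I replicates 1 to 3, where replicate 3 had 9.01 TPM of S100a6, more than the 4.62 TPM of Rop7-II replicate 3. In Rop7-III it was between 155 and 181 TPM, with S100a6 above its level in Rop7-II replicate 2 in all 3 samples. S100a4 was at 24.9, 9.63, 8.0 and 5.39 TPM in the samples with 891, 349, 267 and 214 TPM of myeloid markers. S100a6 was at 26.0, 4.62, 9.01 and 3.65 TPM there. In the rest, with at most 181 TPM of these markers, S100a4 was at most 2.09 TPM and S100a6 at most 3.60 TPM. Neither gene followed the order of the myeloid level through all 9 samples. Lyz2, the lysozyme of myeloid cells, reached 485 TPM in Rop7-II and was between 19.8 and 83.4 TPM in the other clones. S100a8 and S100a9, calprotectin genes of neutrophils and monocytes, had means in TPM of 11.9 and 23.3 for Rop7-II, 2.41 and 3.52 for Rop7-I, and 2.04 and 5.06 for Rop7-III, with adjusted p = 0.0239 and 0.0320 by limma for Rop7-III against Rop7-II. With the myeloid level as a covariate, the difference of Rop7-III to Rop7-II was 0.13 for S100a4 and 0.84 for S100a6. The part of myeloid cells, or of any other cells, in the levels of S100a4 and S100a6 was not tested.

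**Figure D4:**
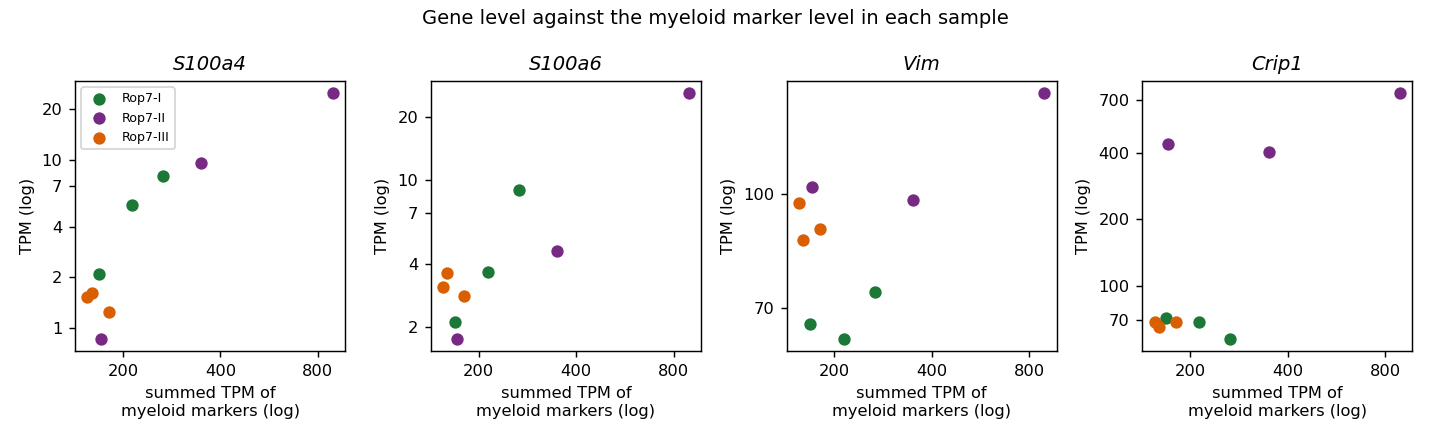
TPM of S100a4, S100a6, Vim and Crip1 against the summed TPM of 18 myeloid markers in each of the 9 samples, coloured by clone, with both axes on a log scale. S100a4 and S100a6 are highest in the sample with 891 TPM of myeloid markers, whereas Crip1 is between 403 and 748 TPM in the 3 Rop7-II samples and at most 71.1 TPM in all others.

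Lgals1, at chr15:78926725-78930465, encodes galectin-1, a lectin that dampens T-cell responses. It was at 67.7, 46.8 and 46.5 TPM in Rop7-II, at 40.1, 38.1 and 28.9 TPM in Rop7-III and at 30.9, 18.8 and 37.7 TPM in Rop7-I. Rop7-II was above both other clones in every sample, and these overlapped. The difference was -0.89 (95% confidence interval -1.44 to -0.34, adjusted p = 0.0338 by limma) in Rop7-I against Rop7-II and -0.57 (-1.11 to -0.020, adjusted p = 0.121) in Rop7-III against Rop7-II, neither past 0.01. Without Rop7-II replicate 1 they were -0.71 (adjusted p = 0.0762) and -0.39 (adjusted p = 0.288).

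Vim, at chr2:13574311-13582826, encodes vimentin, the intermediate filament protein of lymphocytes. It was at 137, 102 and 98.3 TPM in Rop7-II, at 86.7, 97.2 and 89.7 TPM in Rop7-III and at 66.6, 63.4 and 73.6 TPM in Rop7-I. The 3 clones did not overlap, with Rop7-I lowest and Rop7-II highest, though the gap between Rop7-III and Rop7-II was narrow. Rop7-I differed from Rop7-II by -0.71 in Vim (SE 0.11, adjusted p = 0.00330 by limma), a ratio of mean TPM of 1.66. The differences of Rop7-III were 0.42 (adjusted p = 0.0412) to Rop7-I and -0.29 (adjusted p = 0.0988) to Rop7-II. Without Rop7-II replicate 1 the difference of Rop7-I to Rop7-II was -0.56 (adjusted p = 9.51e-04) and that of Rop7-III to Rop7-I passed (adjusted p = 0.00235), but without Rop7-I replicate 1 or 2 the adjusted p of Rop7-I against Rop7-II was 0.0149 and 0.0180. St8sia6, a sialyltransferase gene 68.2 kb from Vim, was lowest where Vim was highest, with 9.57 to 11.8 TPM in Rop7-II, 20.5 to 27.0 TPM in Rop7-I and 33.0 to 37.4 TPM in Rop7-III, and differed by 1.69 in Rop7-III and by 1.14 in Rop7-I relative to Rop7-II (adjusted p = 1.60e-05 and 1.99e-04). C1ql3, a secreted C1q-like protein 563.4 kb from Vim, was low, at 1.52 to 2.11 TPM in Rop7-III and 0.20 to 0.49 TPM in the others, with differences of 1.11 to Rop7-II and 1.12 to Rop7-I (adjusted p = 0.00181 and 0.00357). Over all 10 genes, 161 other tested genes lay within 1 Mb of a member, and 4 of them were called in any pair, 2.48%, the same percentage as among all genes tested.

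The share of a gene's variation that lay between clones, as a percentage of its sum of squares over 9 samples, set the genes in a clear order. It was 97.1% for Crip1, 95.3% for Hopx, 94.8% for Ahnak and 81.5% for Vim. It was between 60.3% and 63.7% for Lgals1, S100a10 and Anxa2, and 34.4% for S100a4, 20.7% for S100a11 and 13.2% for S100a6. The median of the 10 was 62.9%, against 53.4% for all genes.

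Likeness between the genes was measured as Pearson's r of log2(TPM + 1) over the 9 samples, which share clones, libraries and scaling and fall into 3 clones, so that r is given as a description. Over the 45 pairs of genes its median was 0.30, with 8 pairs above 0.7 and 15 below 0. The highest was 0.89, for S100a4 and S100a6, and the lowest -0.72, for Hopx and Vim. A first group held Ahnak, Anxa2, S100a10 and S100a11, with r = 0.85 for Ahnak and Anxa2, 0.83 for S100a10 and Anxa2, 0.75 for Ahnak and S100a10 and 0.86 for S100a10 and S100a11. S100a11 was less like the other members of this group, with r = 0.40 to Ahnak and 0.70 to Anxa2. A second held Crip1, Lgals1 and Vim, with r between 0.75 and 0.86. Hopx had a negative r with 7 of the other genes. Of the deviations of samples from their clone means, the median r was higher, 0.53, with 10 pairs above 0.7 and 3 below 0, led by S100a10 and S100a11 at 0.97 and S100a4 and S100a6 at 0.92. These deviations include Rop7-II replicate 1, the highest sample for 6 of the genes. Neither median was computed without that sample or over pairs of all genes, so neither is set against a background.

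**Figure D5:**
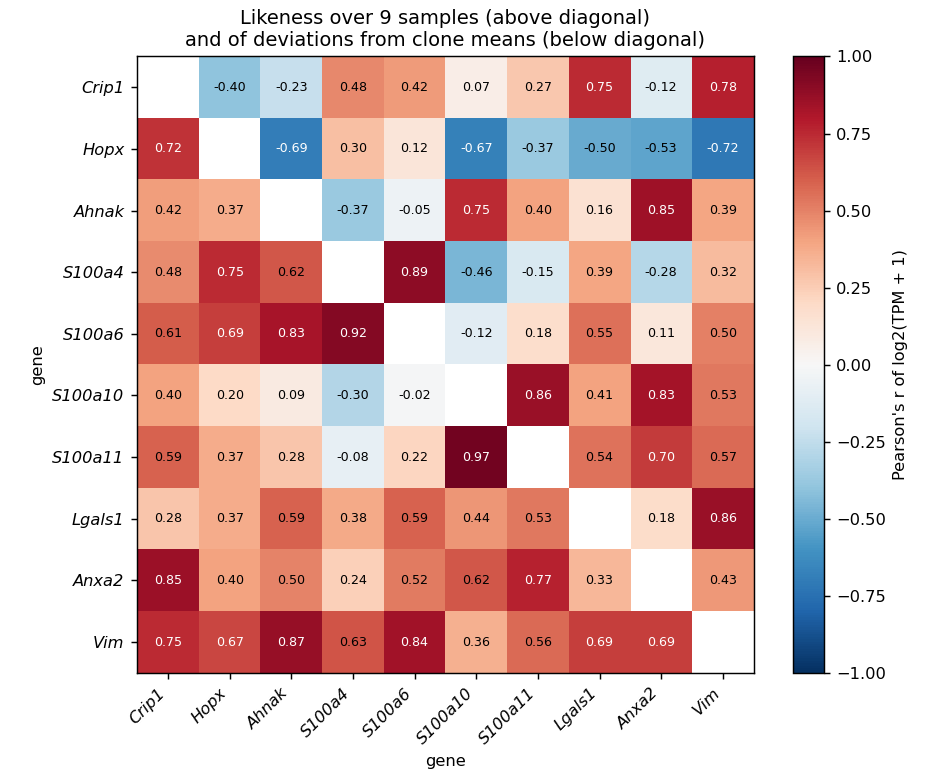
Pearson's r of log2(TPM + 1) between each 2 of the 10 genes over 9 samples, above the diagonal, and of the deviations from the clone means, below it. Above the diagonal the colours mix, with the row of Hopx mostly blue, while below it most are red, with S100a10 and S100a11 at 0.97.

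The genes whose pattern was most like each member came from all 12115 genes, by r over the same 9 samples. For Crip1 they were Klhl20, Atrip and Lrrc1, for Hopx G3bp2, A3galt2 and Heatr1, and for Ahnak Mettl3, Smap1 and Rsu1, all with r between 0.97 and 0.99. For S100a4 they were Clec4n, Mefv and Pstpip2, and for S100a6 Cd80, Csf2ra and Naip2, again between 0.97 and 0.98. Several of these are known from myeloid cells, such as Clec4n, which encodes the lectin dectin-2, and Csf2ra, a chain of the GM-CSF receptor. For S100a10 they were Capns1, Pgap2 and Rab27a, for Lgals1 Adrm1 and Plp2, for Anxa2 Ethe1, Rhbdf2 and Cdc42, and for Vim Rit1, Sh3bgrl3 and Gapdh, with r between 0.93 and 0.98. For S100a11 the best were 9030624J02Rik, A430005L14Rik and 3110082I17Rik, with r from 0.89 to 0.92.

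Relatives of these genes were examined as a list of 33 other S100, annexin, galectin, CRIP and AHNAK genes, of which 17 were tested. None was higher at an adjusted p under 0.01 in any of the 3 pairs. In Rop7-I against Rop7-II, 4 were lower, Crip2, Anxa5, Anxa6 and Anxa7, and in Rop7-III against Rop7-II 2 were lower, Crip2 and Anxa11, while none passed in Rop7-III against Rop7-I. These are 23.5%, 11.8% and 0% of the list, against 7.53%, 12.3% and 4.85% of all genes. With Rop7-II replicate 1 left out, 16 were tested and 2, 1 and 0 passed, against 7.34%, 11% and 6.97% of all genes in that fit. The median differences were -0.31, -0.20 and 0.00016. Anxa5, which binds phosphatidylserine, fell from a mean of 61.7 TPM in Rop7-II to 38.0 TPM in Rop7-I, a difference of -0.68 (adjusted p = 0.00336 by limma). Anxa6, an abundant annexin of lymphocytes, had 500 and 422 TPM, a difference of -0.24 (adjusted p = 0.00663). Anxa11 differed by -0.20 (adjusted p = 0.00523) in Rop7-III against Rop7-II. With Rop7-II replicate 1 omitted, Anxa5 (-0.59, adjusted p = 0.00645) and Crip2 passed in Rop7-I against Rop7-II, while Anxa6 and Anxa7 did not (adjusted p = 0.0105 and 0.0171), nor did Anxa11 in Rop7-III against Rop7-II (adjusted p = 0.0144). Of the 32 listed genes that were measured, tested or not, 14 had their highest value in Rop7-II replicate 1, against 20.9% of all genes tested.

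Among 7 tested genes of intermediate filaments and the nuclear lamina besides Vim, 2 were lower in Rop7-I, relative to Rop7-II, against 7.53% of all genes, and none passed in the other pairs. The fit without Rop7-II replicate 1 passed 2 in the first pair, against 7.34% of all genes. It passed 1, Plec, in Rop7-III against Rop7-II (-0.38, adjusted p = 0.00417), against 11%. With all 9 samples, Plec, a linker of intermediate filaments, differed by -0.45 (adjusted p = 0.00347 by limma) between Rop7-I and Rop7-II. Its mean was 123 TPM for the former clone and 168 TPM for the latter. Macf1, a linker of actin and microtubules, differed by -0.27 (adjusted p = 0.00764) between the same clones, with means of 434 against 523 TPM. Among 35 actin cytoskeleton genes, 4 rose and 4 fell in Rop7-III relative to Rop7-II, 2 rose and none fell relative to Rop7-I, and 1 rose and 7 fell in Rop7-I relative to Rop7-II. These are 22.9%, 5.71% and 22.9% of the list, against 12.3%, 4.85% and 7.53% of all genes, so that the second is near the background. These counts became 9, 3 and 6 without Rop7-II replicate 1, against 11%, 6.97% and 7.34% of all genes in that fit. Flna, the actin crosslinker filamin A, differed by -0.37 in both Rop7-III and Rop7-I relative to Rop7-II (adjusted p = 6.28e-04 and 9.26e-04). Tmsb4x, which sequesters actin monomers, went the other way, by 0.29 and 0.31 (adjusted p = 0.00107 and 0.00117). Emp3, a membrane protein, differed by -0.61 and -0.39 (adjusted p = 4.44e-04 and 0.00702), the second with an adjusted p of 0.0112 without Rop7-II replicate 1.

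Other markers of the memory and the naive state were set beside the 10 genes. Of 40 tested memory and effector markers, 8 rose and 4 fell in Rop7-III relative to Rop7-II, 2 rose relative to Rop7-I, and 2 rose and 2 fell in Rop7-I relative to Rop7-II. These are 30%, 5% and 10% of the list, against 12.3%, 4.85% and 7.53% of all genes, so that the second is at the background and the third is near it. The fit without Rop7-II replicate 1 tested 38 and passed 16, 7 and 7, against 11%, 6.97% and 7.34% of all genes. Ccl5, a chemokine of memory CD8 T cells, had a mean TPM of 4.14 for Rop7-II, 7.74 for Rop7-I and 28.8 for Rop7-III, a difference of 2.61 (adjusted p = 8.99e-05 by limma) between Rop7-III and Rop7-II. Eomes differed by 2.19 (adjusted p = 1.88e-04) between Rop7-I and Rop7-II. Itgae, the integrin chain CD103, was highest in Rop7-II, the clone with high Crip1, at 244 TPM against 141 in Rop7-I and 98.8 in Rop7-III. Itgb7, its partner chain, was highest there too, and differed by -0.60 (adjusted p = 2.63e-04) in Rop7-III and by -0.46 (adjusted p = 0.00186) in Rop7-I relative to Rop7-II. Genes of effector function covered a wide range of levels. Tbx21, Gzmk and Klrg1 did not exceed 0.28, 0.18 and 0.77 TPM in any sample, whereas Prf1, which encodes perforin, was between 22.2 and 37.9 TPM, Cst7 between 20.5 and 39.0 TPM, Nkg7 between 166 and 248 TPM and Klrd1 between 148 and 464 TPM. Cd44, the adhesion receptor used to mark antigen-experienced cells, was at 9.51 TPM in Rop7-II replicate 1 and at 1.85 and 2.68 TPM in its replicates 2 and 3, against a mean of 8.05 TPM for Rop7-I and of 10.1 TPM for Rop7-III. It did not pass in any pair, and without Rop7-II replicate 1 it was higher than in Rop7-II by 1.78 in Rop7-III (adjusted p = 6.22e-05) and by 1.48 in Rop7-I (adjusted p = 2.33e-04).

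Of 22 genes of the naive state, 7 rose and 3 fell in Rop7-III relative to Rop7-II, 3 rose relative to Rop7-I, and 3 rose and 4 fell in Rop7-I relative to Rop7-II. These are 45.5%, 13.6% and 31.8% of the list, against 12.3%, 4.85% and 7.53% of all genes. The counts were 8, 6 and 8 without Rop7-II replicate 1, against 11%, 6.97% and 7.34% of all genes in that fit. Il7r, the interleukin-7 receptor chain, was at 317 TPM in Rop7-II, 511 in Rop7-I and 749 in Rop7-III, with a difference of 1.24 (adjusted p = 1.26e-06 by limma) between Rop7-III and Rop7-II. Dapl1 differed by 3.06 (adjusted p = 1.16e-05) in the same pair, with 42.3 TPM in Rop7-II and 349 in Rop7-III. Klf2 differed by -0.68 in Rop7-I relative to Rop7-II (adjusted p = 2.62e-04). Ccr7, the homing receptor of naive cells, was highest in Rop7-II, with differences of -0.14 in Rop7-III (adjusted p = 0.00655) and -0.24 in Rop7-I (adjusted p = 5.22e-04). The clone in which Crip1 was high was thus low in Ccl5 and Il7r and high in Itgae, Itgb7 and Ccr7, so that neither list moved one way. Ccl5, Eomes, Il7r, Dapl1, Itgae, Itgb7 and Ccr7 kept the sign of the differences given here, and passed in them, without Rop7-II replicate 1.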

How the data were processed

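Polyadenylated RNA of sorted CD8 T cells was sequenced from 200 ng per library, with single-end reads of 100 bp and without strand information, in 3 biological replicates of each clone. The authors estimated transcript levels with RSEM 1.2.11 against RefSeq genes of the mm10 build and deposited them in TPM, with each sample summing to 1000000 or 1000001. They tested counts with DESeq2 1.8.1, which is not suited to TPM. TPM keep no depth, so no interval for counting error was computed, and genes on opposite strands that overlap cannot be told apart.

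Here log2(TPM + 1) of the 12115 genes with a maximum TPM over 1 was fitted with limma 3.58.1 in R 4.3.3 to the 9 samples together, letting the spread follow mean expression and with no block. P-values were adjusted by Benjamini-Hochberg within each pair and are limma's throughout. A gene was called at an adjusted p under 0.01 and a fold of 2. The fit was tested on simulated data. The 10 genes and the lists were chosen with earlier results of these data known. Named were all 10 genes, the 3 genes most like each, up to 5 genes of each list by the F test among those that passed in a pair, and called genes within 1 Mb. Of the genes this rule names, 2 are not reported here. Cd44, Tbx21, Gzmk, Klrg1, Prf1, Cst7, Nkg7, Klrd1, Lyz2, S100a8, S100a9, Nudt14, Cdca4 and Inf2 were named after their values were seen. RefSeq on GRCm38.p6, the mm10 build, gave promoter windows and positions, the latter for 12055 genes that were tested. Groups follow the labels, and no library was identical to another.

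Alternatives were other pseudocounts, filters and scalings, quantile normalization, a constant spread, weights per sample, fits of single pairs, a replicate block, omission of single samples, a looser limit on the adjusted p, marker levels of B cells and myeloid cells as covariates, Spearman's rho for likeness and other windows for neighbours.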

Additional observations from a re-analysis of the deposited data

How the results depend on the processing

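The differences that were called in Crip1, Hopx and Ahnak kept their direction and an adjusted p under 0.01 by limma in all alternatives in which they were tested. Crip1 ran from -3.08 to -2.58 in Rop7-III against Rop7-II, Ahnak from 0.966 to 1.24 (under 2-fold without Rop7-II replicate 2 or 3) and, in Rop7-III against Rop7-I, from 1.32 to 1.54. Where every sample had to reach 1 TPM, Hopx and S100a4 were not tested, and the genes called and passed were 1 in Rop7-III against Rop7-I and 1 called in Rop7-I against Rop7-II. In Rop7-III against Rop7-I, 4 genes passed with sample weights, with only the 2 clones fitted and with the B-cell level as a covariate. Anxa2 and Vim were the genes added. At an adjusted p under 0.05, 5 passed in that pair. In Rop7-III against Rop7-II, 3 passed with the B-cell level as a covariate, Anxa2 being added. Leaving out each sample in turn gave 1 to 3 called genes in Rop7-III against Rop7-II and 2 to 4 that passed in Rop7-III against Rop7-I, the 4 without Rop7-II replicate 1 (Anxa2 and Vim added). The counts of the gene lists were less stable than those of the 10 genes. Over all lists, pairs and alternatives, 217 counts were within 1.5 times the reported one, 79 were lower and 34 higher. Leaving out each sample in turn gave 0 to 4 relatives in Rop7-I against Rop7-II, and in Rop7-III against Rop7-II 4 to 9 actin genes, 9 to 16 memory and effector markers and 5 to 9 naive genes. Vim in Rop7-I against Rop7-II had an adjusted p of 0.0112 with no trend and 0.0199 with only these clones fitted. Called neighbours were 11 within 2 Mb, and the median likeness by Spearman's rho was 0.17.

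Differences that changed sign were of uncalled genes. Leaving out each sample in turn, the difference in Rop7-III against Rop7-II ran from -0.49 to 0.049 for Hopx, from -1.57 to 0.080 for S100a6 and from -0.11 to 0.11 for S100a11. In Rop7-III against Rop7-I it ran from -0.056 to 0.098 for Crip1 and from -0.72 to 0.13 for S100a6. In Rop7-I against Rop7-II it ran from -1.56 to 0.34 for S100a4, from -1.23 to 0.42 for S100a6 and from -0.67 to 0.080 for Anxa2, in each case with the last value without Rop7-II replicate 1. Adjusting for the myeloid level gave Hopx 0.18, S100a4 0.13 and S100a6 0.84 in Rop7-III against Rop7-II, S100a6 0.44 in Rop7-III against Rop7-I, and S100a4 0.47 and S100a6 0.40 in Rop7-I against Rop7-II, and adjusting for the B-cell level gave S100a6 0.74 in Rop7-III against Rop7-I. The cause was not tested.

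The replicate numbers did not pair the samples: same-numbered samples deviated together with r between -0.39 and 0.11, and 1 of 9 samples was most like one of its own number. With the replicate number as a block, 2 genes were called in each pair, as without it, and the adjusted p of Vim in Rop7-I against Rop7-II was 0.0111. The deposited TPM limit what can be said of Hopx, S100a4 and S100a6, whose levels are low.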
